A study of Mus musculus with 89 samples.

Results

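The comparison described here is that of mouse embryonic stem cells (ESCs) depleted of Esrrb with control ESCs, both cultured in 2i/LIF, in which inhibitors of the kinases Mek and Gsk3 join the cytokine LIF in the absence of serum. It rests on 6 RNA-seq libraries, 3 per state, of the 89 samples of the series, of which 20 are RNA-seq libraries and 69 are ChIP-seq libraries. The 6 were assigned to the states by their labels and by no measured value, while the comparison was chosen with earlier results of these data known. Both states are of the line EKOiE, ESCs in which the endogenous Esrrb gene is knocked out and a transgene under a doxycycline (Dox) responsive promoter supplies Esrrb. The control, +E+N, was kept in Dox at 1 µg/ml, and −E was collected 2 days after Dox was withdrawn, with Nr5a2 intact in both. The withdrawal of Dox and the loss of Esrrb therefore cannot be told apart within these 6 libraries. Of the other states, EKOiE NrKO carries disrupting deletions in both Nr5a2 alleles and was measured with Dox (−N) and 2 days after its withdrawal (−E−N), and the same 4 states were measured in FCS/LIF, a medium with serum and LIF. The study describes the replicates as independent experiments with the same lines, so that p-values measure the spread between experiments and not between lines.

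Esrrb is an orphan nuclear receptor that binds, as a monomer, a nuclear receptor element, AGGTCA, extended by the letters TCA before it. In ESCs it belongs to the network of transcription factors (TFs) that maintains naive pluripotency together with Oct4 (Pou5f1), Sox2, Nanog, Klf4, Tfcp2l1 and Nr5a2, and it is known as a target of Gsk3 inhibition through the relief of Tcf7l1 repression. Other members of its family are regulators of mitochondrial and oxidative metabolism in heart, muscle and fat. In 2i/LIF, ESCs are known to tolerate the absence of Esrrb, whereas in serum they depend on it, and the question of the comparison is what its loss does to the transcriptome in the permissive medium.

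The total of the estimated counts lay between 27330885 and 32526534 per library in +E+N and between 27996686 and 29582174 in −E. The share of counts on mitochondrially encoded genes was 2.94% ± 0.120 (SD, n = 3) in +E+N and 3.13% ± 0.336 in −E (two-sided exact permutation p = 0.6, where 0.1 is the smallest value that 3 libraries against 3 allow). The defining markers of ESCs were present in all 6 libraries, with Pou5f1 between 1332 and 1544 TPM (a level scaled to transcript length and library), Nanog between 439.9 and 599.4 and Zfp42 between 300.2 and 381.8. Klf4 was lower in every −E library (24.93 to 39.85 TPM, against 40.76 to 51.5 in +E+N). So were Tfcp2l1 (56.28 to 67.29 against 92.04 to 99.39) and Sox2 (87.25 to 139.9 against 142.9 to 185.2). Dppa5a was lower too (3779 to 4226 against 4787 to 5022), while Utf1 overlapped. None of these markers was called by edgeR without the block. On the first principal component of the 6 libraries (44.0% of the variance) the states separated, and on the second (29.8%) the 2 libraries numbered 1 lay apart from the other 4.

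Esrrb itself (chromosome 12, 86361117 to 86521628, mm10, plus strand) was at 505, 600 and 598 counts relative to the library total (CPM) in +E+N and at 440, 426 and 374 CPM in −E. All 3 −E libraries lay below the controls, in the direction of their label, yet the difference did not pass the test on counts (log2 fold change -0.46, standard error 0.158, edgeR adjusted p = 0.116). In TPM, which the authors computed per transcript length, the gap was wider, at 237 ± 45.0 in +E+N and 122.7 ± 9.83 in −E. The ratio of CPM to TPM, which moves with the transcript length assigned to the gene, was 2.43 ± 0.259 in +E+N and 3.37 ± 0.212 in −E for Esrrb, while it was 0.954 ± 0.0233 and 0.972 ± 0.0833 for Gapdh. The gene count does not separate transcripts of the transgene from those of the knocked-out alleles. It therefore does not measure the loss of the protein. The study reports that Esrrb binding to DNA was abolished in EKOiE cells in this medium once Dox had been withdrawn. That binding was not examined here. Nr5a2 (chromosome 1, 136842571 to 136960448, minus strand), the partner receptor, was at 78.6, 69.6 and 61.2 CPM in +E+N and at 52.0, 45.7 and 41.6 CPM in −E, again without overlap (log2 fold change -0.59, standard error 0.209, edgeR adjusted p = 0.129). With the replicate number as a block, which pairs the libraries of one number, Nr5a2 passed the limits (log2 fold change -0.59, edgeR adjusted p = 0.00573).

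After the loss of Esrrb, 223 of 14355 genes tested were called (1.55%), at an adjusted p under 0.01 and a fold change over 1.5, and 160 of them (1.11% of genes tested) were lower and 63 (0.439%) higher. Among the falls were the metabolic genes Ldhb, Fabp3 and Slc25a4 and the naive pluripotency genes Jam2, Nr0b1 and Tcl1. Among the rises were the Nodal antagonists Lefty1 and Lefty2, the methylation genes Dnmt3l and Dnmt3a, Ccnd2, and the naive pluripotency gene Gbx2. Of the 24 naive genes tested, 20 were not called. The falls were deeper than the rises, with a median of 2.53-fold against 2.21-fold, and 44 genes fell by more than 4-fold while 6 rose by as much. No overlap between the 3 −E and the 3 +E+N libraries was seen for any of the 223 genes, against 24.8% of all genes tested. This follows largely from the choice of the 223 by a test on these same libraries, and adds no further evidence. In summed mean TPM, the 160 lower genes went from 3710 in +E+N to 1749 in −E and the 63 higher genes from 1103 to 2017. A fall in bulk RNA does not tell fewer cells expressing a gene from less RNA per cell.

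With the replicate number as a block, 596 genes were called (4.15%), of which 242 were higher and 354 lower, and all 223 genes were among them in the same direction. DESeq2 called 447 genes (3.11%), 158 higher (1.1%) and 289 lower (2.01%), again with all 223 among them. Leaving out 1 library gave 124 calls without +E+N replicate 1, 110 without +E+N replicate 2, 95 without +E+N replicate 3, 159 without −E replicate 1, 127 without −E replicate 2 and 87 without −E replicate 3. These fits, and the leave-outs below, held no block, so a call lost there was lost without the pairing. Of the genes named below, 5 lost their call in every leave-out of 1 library, Rara, Cpt1a, Pmvk, Mylpf and Eif4g3. With all libraries and the block their edgeR adjusted p was 0.000371 to 0.00142. With the libraries numbered 1 left out of all states, 143 genes were called, 38 higher and 105 lower. Among the genes named below, 15 calls did not pass the limits there (edgeR adjusted p = 0.0107 to 0.0415), those of Krt19, Dnmt3l, Spn, Lefty2, S100a6, Tcl1, Gbx2, Rara, Dnmt3a, Tfap2a, Cpt1a, Hk1, Pmvk, Mylpf and Ctsc.

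**Figure D1:**
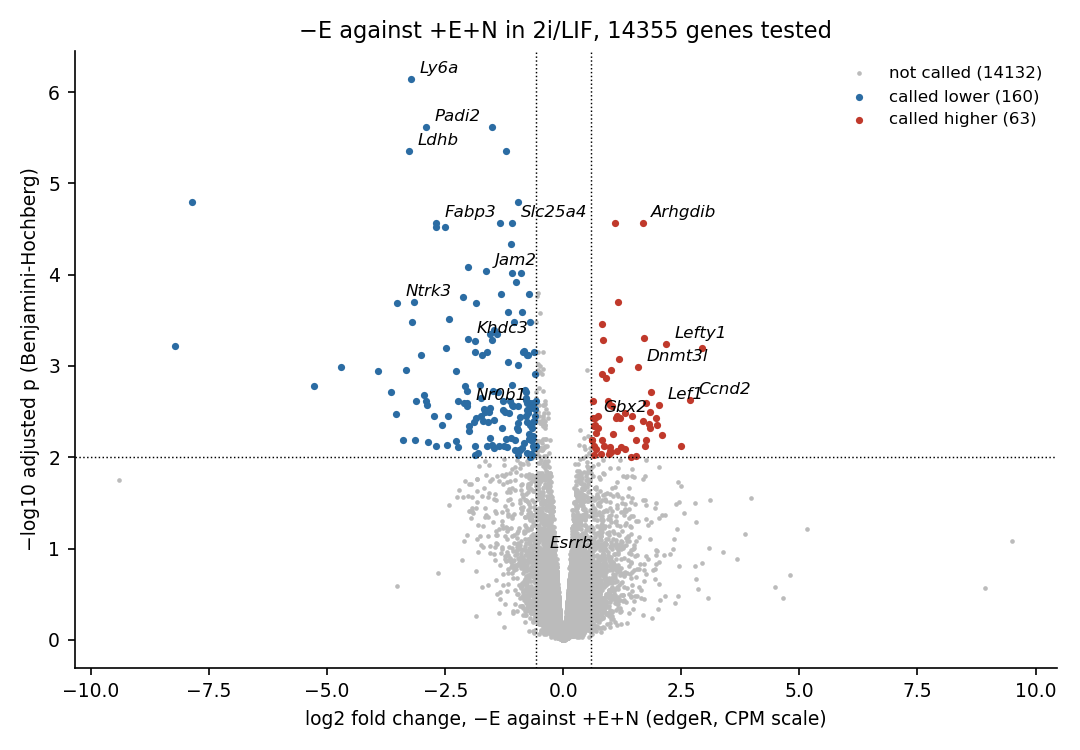
Log2 fold change in −E against +E+N in 2i/LIF (x axis, edgeR) and −log10 of the adjusted p (y axis) for each of the 14355 genes tested, with dotted lines at the limits of a call. The 160 genes called lower (blue) extend further from 0 than the 63 called higher (red), and Esrrb lies under the limit.

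The largest fall among well-measured genes (a mean of at least 100 counts and no overlap between states, with predicted genes left out of this ranking and those below) was that of Ldhb, the lactate dehydrogenase subunit of oxidative tissues, on chromosome 6 (142490249 to 142507957, minus strand). It was at 131, 83.0 and 92.5 CPM in +E+N and at 12.3, 11.4 and 8.25 CPM in −E, a log2 fold change of -3.26 (standard error 0.209, edgeR adjusted p = 4.46e-06). The control libraries thus stood at least 6 times above any −E library, and Ldhb was also among the 4 largest losses in TPM, from 116 to 12.3. Fabp3, the fatty acid binding protein of heart and muscle, was at 51.5, 37.8 and 50.1 CPM in +E+N and at 4.52, 8.15 and 8.86 CPM in −E (log2 fold change -2.69, standard error 0.216, edgeR adjusted p = 2.73e-05). Smyd1, a muscle histone methyltransferase, was at 8.50, 7.77 and 12.2 CPM and then at 1.21, 0.671 and 1.30 CPM (-3.16, standard error 0.325). Aspa, the enzyme that cleaves N-acetylaspartate to acetate, was at 3.30, 6.45 and 10.3 CPM in +E+N and at 0.427, 0.953 and 0.886 CPM in −E (-3.14, standard error 0.561). Of the 12 largest falls, Aspa lost its call in the most leave-outs of the fit without the block. Its call was kept without +E+N replicate 1 alone and was lost without each of the other 5 libraries, with an edgeR adjusted p of up to 0.0324. With the replicate number as a block, the edgeR adjusted p of Aspa was 2.53e-06.

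Ly6a, the Sca-1 antigen on chromosome 15, had the lowest adjusted p of the whole comparison. It was at 34.1, 28.1 and 33.2 CPM in +E+N and at 3.74, 3.14 and 3.37 CPM in −E (log2 fold change -3.22, standard error 0.154, edgeR adjusted p = 7.13e-07), a separation with very little spread within either state. Epha4, an ephrin receptor, was at 52.4, 43.0 and 53.5 CPM and at 11.9, 8.44 and 5.79 CPM (-2.51, standard error 0.206). St8sia1, the sialyltransferase that makes the ganglioside GD3, was at 24.0, 25.3 and 27.1 CPM and at 3.10, 5.01 and 3.72 CPM (-2.69, standard error 0.220). The groups did not overlap for either gene, and the −E values of Epha4 were the more spread. Padi2, which converts arginine of histones to citrulline, was at 21.4, 22.8 and 22.1 CPM and at 1.99, 3.46 and 3.41 CPM (-2.90, standard error 0.169). The axon guidance ligand Slit2 was at 5.79, 6.05 and 8.07 CPM and at 0.392, 1.09 and 0.954 CPM (-3.02, standard error 0.380), and the neuronal splicing factor Nova2 fell by 3.21 on the log2 scale (standard error 0.355). Parm1, a mucin-like membrane protein, fell by 2.94 (standard error 0.427), a call lost without −E replicate 3 (edgeR adjusted p = 0.0101). The potassium channel Kcnh3 fell by 2.56 (standard error 0.431), and its call was lost without −E replicate 2 (edgeR adjusted p = 0.0211) and without any 1 of the 3 +E+N libraries (0.0149 to 0.0156).

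The largest rise among equally well-measured genes was that of Ccnd2, cyclin D2, which drives the G1 phase of the cell cycle. It was at 1.51, 2.75 and 2.76 CPM in +E+N and at 15.2, 15.6 and 14.3 CPM in −E, a log2 fold change of 2.69 (standard error 0.397, edgeR adjusted p = 0.00236). The 3 −E libraries agree closely, while +E+N replicate 1 is the lowest control. The call was lost by a small margin without each +E+N library (edgeR adjusted p = 0.0106 to 0.0109). Arhgdib, a GDP dissociation inhibitor of small GTPases, was at 4.19, 4.33 and 5.00 CPM and at 14.1, 12.3 and 17.1 CPM (1.69, standard error 0.134, edgeR adjusted p = 2.72e-05), the smallest error among the largest rises, and it kept its call without any 1 of the 6 libraries. Of the others, the navigator gene Nav2 rose by 1.98 on the log2 scale, from 3.08 to 4.88 CPM in +E+N to between 7.26 and 23.9 CPM in −E, with −E replicate 3 the highest. Dok4, a docking protein of receptor tyrosine kinases, rose by 1.85, Ankrd33b by 1.83, the sialoglycoprotein gene Spn by 1.46 and the calcium binding protein gene S100a6 by 1.20. The calls of Nav2, Ankrd33b and Spn each survived only 1 of the 6 leave-outs, that of −E replicate 1 for all 3, with an edgeR adjusted p of at most 0.0265 in the other 5. Dok4 lost its call without +E+N replicate 1 or 2 (edgeR adjusted p = 0.0101 and 0.0111) and S100a6 without +E+N replicate 1 or 2 or −E replicate 2 or 3 (at most 0.0211).

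**Figure D2:**
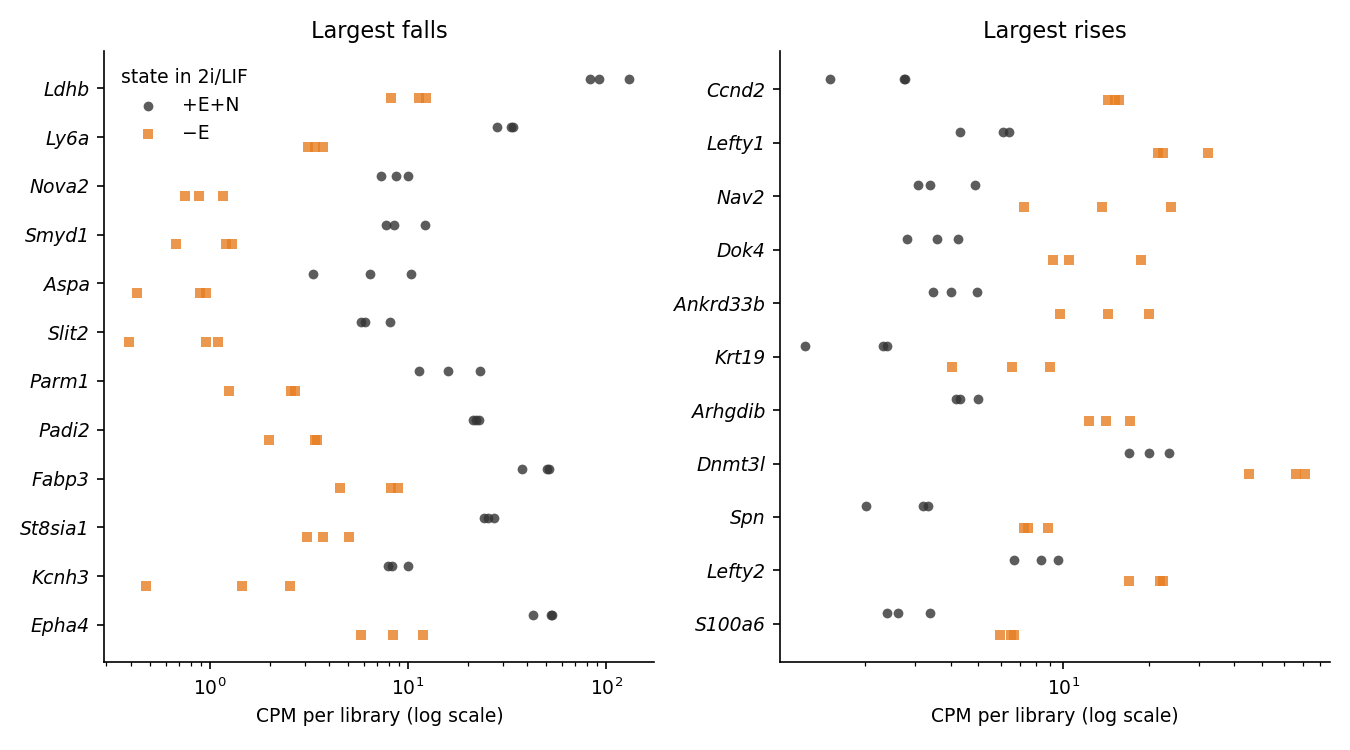
CPM of each library (x axis, log scale) for the 12 largest falls and 11 of the 12 largest rises among well-measured called genes, predicted genes left out, with +E+N as dark circles and −E as orange squares, 3 libraries each. The states do not overlap for any of these genes, which follows from how they were chosen, and among the rises the −E values of Nav2 are the most spread.

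Of 6 core pluripotency factors, 0 were called by edgeR, with or without the replicate number as a block, and by DESeq2, and their median log2 fold change was -0.07, against 0.01 over all genes. For this list and those below, the shares called over all genes tested were 1.55% by edgeR, 4.15% with the block and 3.11% by DESeq2. In a short list, 0 calls is near these shares. The lists were chosen with earlier results of these data known, which can raise their shares. Sox2 had the lowest p of the 6 core factors, at 232, 289 and 273 CPM in +E+N and 152, 215 and 209 CPM in −E (log2 fold change -0.46, standard error 0.138, edgeR adjusted p = 0.0736). The unadjusted p was 0.00565, and −E replicate 1 was the lowest library. With the block the edgeR adjusted p of Sox2 was 0.000216, at a log2 fold change of -0.47 that stayed under the fold limit. Zfp281 was at 108 CPM in each control and between 108 and 121 CPM in −E.

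Of 24 naive factors, all tested, 3 fell and 1 rose (16.7% called, against 1.55% of all genes tested), and the median log2 fold change was -0.22. Jam2, a junctional adhesion molecule, was at 214, 233 and 258 CPM in +E+N and at 87.8, 73.7 and 66.2 CPM in −E (log2 fold change -1.63, standard error 0.150, edgeR adjusted p = 9.09e-05). Nr0b1, which encodes the nuclear receptor corepressor Dax1, was at 43.8, 26.9 and 27.8 CPM and at 12.6, 5.15 and 6.20 CPM (-2.04, standard error 0.314, edgeR adjusted p = 0.00276). Tcl1, an Akt coactivator, was at 85.0, 71.0 and 66.6 CPM and at 29.2, 31.5 and 24.6 CPM (-1.39, standard error 0.198, edgeR adjusted p = 0.00190). In all 3 genes every −E library lay below every control by a wide margin. The call of Nr0b1 was lost without +E+N replicate 1, −E replicate 2 or −E replicate 3 (edgeR adjusted p = 0.0118, 0.0126 and 0.0179), with the highest −E value in replicate 1, and that of Tcl1 without −E replicate 3 (0.0131). Gbx2, a homeobox gene downstream of LIF, moved the other way, from 50.5, 42.2 and 44.3 CPM to 70.8, 61.5 and 85.1 CPM (0.67, standard error 0.108, edgeR adjusted p = 0.00369). Its call was lost without +E+N replicate 2 or 3 or −E replicate 1 or 3, with an edgeR adjusted p of 0.0104 to 0.0214.

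With the replicate number as a block, the naive list had 7 falls and 2 rises. The added falls were Tfcp2l1, Nr5a2, Fgf4 and Spic and the added rise was Dppa2, and the last 3 (Fgf4, Spic and Dppa2) were named after their values were seen. Tfcp2l1, a TF at the junction of the LIF and Gsk3 inputs, was at 783, 711 and 759 CPM in +E+N and at 527, 506 and 433 CPM in −E (log2 fold change -0.62, standard error 0.134, edgeR adjusted p = 0.0177, and 0.000843 with the block). Fgf4 had a log2 fold change of -0.60 and Spic of -1.19, and Dppa2 of 0.62. Of the 20 genes of the LIF-Stat3 pathway, Gbx2 was the 1 called. With the block or with DESeq2, 3 members were lower and 1 higher. The median of the list was -0.06.

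**Figure D3:**
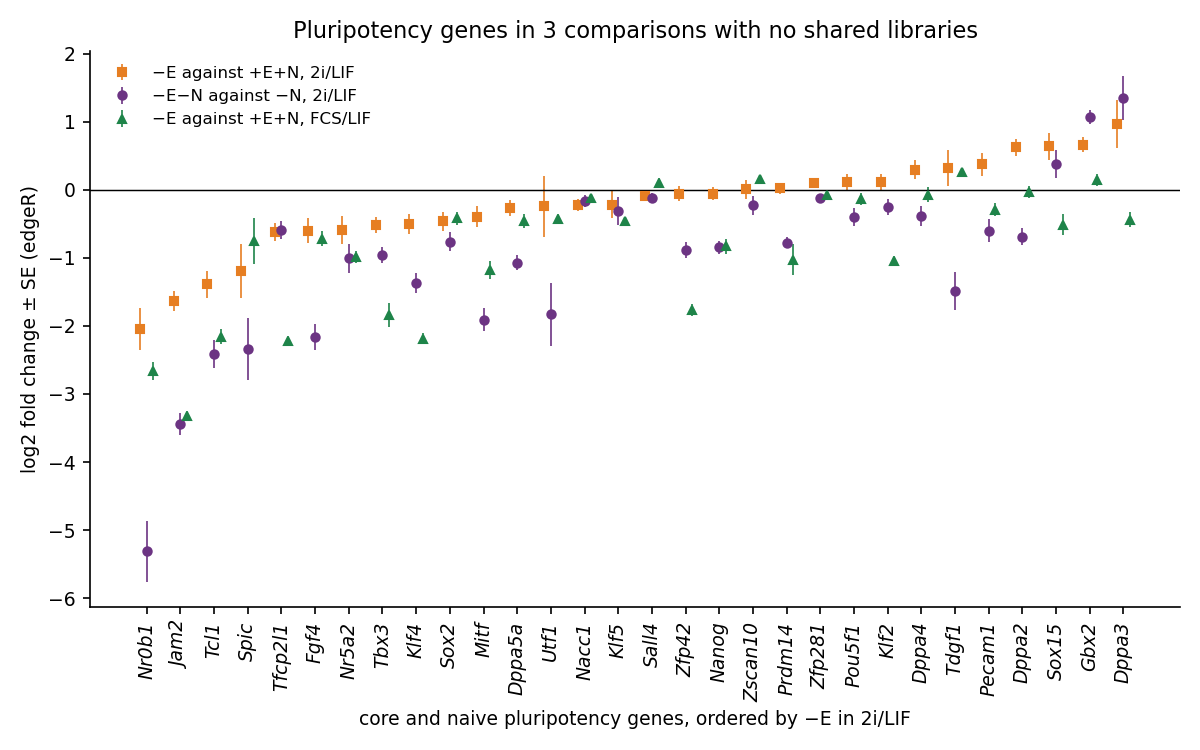
Log2 fold change ± SE (edgeR, y axis) of the 6 core and 24 naive pluripotency genes after Dox withdrawal in 3 pairs of states that share no library. The values for −E in 2i/LIF (orange) run from -2.04 for Nr0b1 to 0.97 for Dppa3, and most of those without Nr5a2 (purple) lie below them.

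Among 35 nuclear receptor genes, 25 were tested and 2 fell, Nr0b1 and Rara. The retinoic acid receptor gene Rara was at 50.1, 43.4 and 46.0 CPM in +E+N and at 31.5, 31.5 and 24.9 CPM in −E (log2 fold change -0.67, standard error 0.117, edgeR adjusted p = 0.00613). It did not pass the limits without any 1 of the 6 libraries (edgeR adjusted p = 0.0115 to 0.0268), although the states did not overlap. With the block, 3 receptors were lower and 2 higher. Of 9 tested coactivators and corepressors of this receptor family, 0 were called by edgeR, with or without the block, and by DESeq2, with Ncor1 having the lowest p (log2 fold change -0.23, edgeR adjusted p = 0.0658).

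In the Nodal and Bmp list, 3 genes rose. Lefty1 and Lefty2, secreted antagonists of Nodal that are themselves Nodal targets, lie about side by side on chromosome 1 (Lefty2 from 180893108 to 180899103 and Lefty1 from 180935022 to 180938400, both on the plus strand). Lefty1 was at 6.11, 6.45 and 4.31 CPM in +E+N and at 22.4, 21.5 and 32.3 CPM in −E (log2 fold change 2.18, standard error 0.260, edgeR adjusted p = 0.000580). Lefty2 was at 9.54, 8.32 and 6.69 CPM and at 21.8, 17.0 and 22.4 CPM (1.32, standard error 0.209, edgeR adjusted p = 0.00330). Both were higher in all 3 −E libraries. Because the 2 genes are close paralogs, reads shared between them were divided by estimation. Id1, a target of Bmp signalling, was at 14.9, 10.9 and 10.8 CPM and at 19.5, 17.3 and 21.0 CPM (0.66, standard error 0.126, edgeR adjusted p = 0.00937). Thus 3 of 18 tested genes of the list rose and 0 fell, where 5 rose and 1 fell with the block, and the median of the list was -0.05. Nodal itself, named after its value was seen, was at a log2 fold change of -0.57 (SE 0.212, edgeR adjusted p = 0.149), on the other side of 0 from its antagonists. Lefty1 kept its call without any 1 library, Lefty2 lost it without +E+N replicate 2 or 3 or −E replicate 1 or 3 (edgeR adjusted p = 0.0125 to 0.0188), and Id1 kept it only without +E+N replicate 1 (at most 0.0520 in the other leave-outs).

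Of 24 tested factors of the formative and primed epiblast, the states that follow naive pluripotency, 3 rose and 0 fell, and with the block 6 rose and 1 fell. Dnmt3l, the cofactor of the de novo DNA methyltransferases, was at 20.0, 17.0 and 23.6 CPM in +E+N and at 70.8, 45.1 and 65.7 CPM in −E (log2 fold change 1.58, standard error 0.207, edgeR adjusted p = 0.00103). Dnmt3a, one of these enzymes, was at 36.2, 44.3 and 50.6 CPM and at 62.8, 63.0 and 74.8 CPM (0.61, standard error 0.109, edgeR adjusted p = 0.00644). Both stand in the list of 12 DNA methylation and Tet genes, where they were the 2 calls. Lef1, a TF of the Wnt pathway, was at 0.944, 0.586 and 0.655 CPM and at 2.39, 2.47 and 4.12 CPM (2.02, standard error 0.307, edgeR adjusted p = 0.00266). It was the 1 call among 31 tested Wnt genes, of which 4 rose with the block. Dnmt3l kept its call without any 1 library. Dnmt3a lost it without each library but +E+N replicate 3 (edgeR adjusted p = 0.0119 to 0.0356), and Lef1 without +E+N replicate 2 or 3 or −E replicate 3 (0.0117 to 0.0157). Otx2, the TF that drives the exit towards the primed state, was named after its value was seen and stood at -1.82 on the log2 scale (standard error 0.445, edgeR adjusted p = 0.0312, and 0.00951 with the block), opposite in sign to the other named members of its list.

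Among 18 tested response genes of the Fgf-Erk pathway, which the Mek inhibitor of 2i/LIF blocks, 0 were called by edgeR and 1 by DESeq2, and 2 were lower with the block. With 18 genes, 0 calls by edgeR is near the share of 1.55% over all genes tested. The lowest p values were those of Etv1 (log2 fold change 0.48, edgeR adjusted p = 0.0268) and of Fgfr2 (-1.59, edgeR adjusted p = 0.0447, and 0.00865 with the block). The median of the list was 0.04.

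Lists that mark other lineages held 5 calls in all. Of 17 tested trophectoderm genes, the keratin gene Krt19 rose, from 1.23, 2.38 and 2.31 CPM to 4.06, 6.57 and 8.998 CPM (log2 fold change 1.73, standard error 0.319, edgeR adjusted p = 0.00755), and the TF gene Tfap2a fell, from 11.0, 10.7 and 8.48 CPM to 3.28, 5.22 and 4.06 CPM (-1.27, standard error 0.188, edgeR adjusted p = 0.00241). The call of Krt19 was kept only without −E replicate 1 (edgeR adjusted p of at most 0.0401 otherwise) and that of Tfap2a was lost without +E+N replicate 1 or 2 or −E replicate 3 (at most 0.0156). Of 12 tested primitive endoderm genes, 1 was called, the laminin gene Lama1, which fell from 39.1, 48.7 and 43.2 CPM to 7.51, 15.6 and 12.8 CPM (-1.87, standard error 0.230, edgeR adjusted p = 0.000694). Of 10 tested mesoderm and primitive streak genes, 1 was called, the homeobox gene Gsc, which fell from between 8.18 and 10.2 CPM to between 3.25 and 3.56 CPM (-1.40, standard error 0.162, edgeR adjusted p = 0.000443). Of 9 tested neural genes, the cell adhesion gene Ncam1 fell, from between 8.25 and 11.1 CPM to between 3.17 and 4.06 CPM (-1.50, standard error 0.176, edgeR adjusted p = 0.000514), and with the block 3 fell and 1 rose. Of the 5 calls in these lists, 4 were thus falls, of genes at under 50 CPM. The lists as a whole did not lean the same way. The median was 0.15 for trophectoderm genes (10 of 17 above 0) and 0.44 for mesoderm and primitive streak genes (7 of 10). It was -0.04 for primitive endoderm genes (6 of 12 above 0) and -0.06 for neural genes (4 of 9).

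Markers of cells that could accompany a culture were low. Of 14 fibroblast feeder markers, 12 stayed under 1 TPM in all 6 libraries and 3 (Dcn, Postn and S100a4) were at 0, and their summed level was between 3.89 and 7.11 TPM in +E+N and between 6.08 and 7.14 TPM in −E. Of 11 blood and endothelial markers, 9 stayed under 1 TPM and 4 were at 0. Their sum, between 63.8 and 69.7 TPM in +E+N and between 81.2 and 89.3 TPM in −E, was nearly all Pecam1, which ESCs also express, at 64.5 and 81.7 TPM on average. Of the 6 and 2 members tested, 0 were called by edgeR or DESeq2, and Pdgfrb, at a log2 fold change of 0.75 (edgeR adjusted p = 0.149), was called higher with the block (0.79, edgeR adjusted p = 0.00128).

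A pair of germline genes fell. Of 21 tested genes of the germline and of the subcortical maternal complex, Khdc3, a component of that complex in oocytes and early embryos, was at 47.3, 46.5 and 50.4 CPM in +E+N and at 12.8, 13.2 and 9.75 CPM in −E (log2 fold change -2.01, standard error 0.236, edgeR adjusted p = 0.000507). Kit, the stem cell factor receptor gene, was at 259, 277 and 276 CPM and at 144, 187 and 164 CPM (-0.71, standard error 0.110, edgeR adjusted p = 0.00285), a call lost without +E+N replicate 2 or 3 or −E replicate 3 (0.0140 to 0.0167). The groups did not overlap for either gene, and Khdc3 kept its call without any 1 library. The RefSeq promoter window of Khdc3 (chromosome 9, plus strand) holds, 204 bases before the RefSeq start, the 9 letters TCAAGGCCA, the variant with C of the extended element that Esrrb and Nr5a2 bind. Among the promoter sequences of called genes that were at hand, 1 other had a match, with the T variant TCAAGGTCA, that of Bhmt (chromosome 13, betaine-homocysteine methyltransferase, log2 fold change -1.86, named after its value was seen). The study reports that Esrrb prefers the T variant and that Nr5a2, which is intact here, prefers the C variant more markedly. The 2 windows are shown since they carry either variant of this shared element in genes that fell. The 9 letters are in capitals, 5′ to 3′ on the strand of the motif (minus in both). They come from RefSeq promoter windows of 250 bases before to 50 after a start in GRCm38.p6, at chr9:73102181-73102207 and chr13:93637816-93637842. Both windows lie within the bounds of the gene in GENCODE (73101836 to 73104438 for Khdc3 and 93616675 to 93637961 for Bhmt), which places the outer start of each gene before the motif.
Khdc3: tacctgactTCAAGGCCAatctaatct
Bhmt: gaccccagaTCAAGGTCAgaggcctgc
Searched on both strands, TCAAGGTCA was in 0.269% and TCAAGGCCA in 0.381% of the 13396 promoter windows of tested genes. A promoter sequence was at hand for 115 of the 160 lower and 43 of the 63 higher genes, under the 80% needed to compare shares, so that no share of called genes is given. A match in such a window is a string of letters and not a site of binding.

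Genes of the 2-cell stage, a set expressed at the first genome activation and in rare ESCs, had the highest median of all lists, at 0.89, with 13 of 15 tested members above 0, but 0 were called by edgeR and 1 by DESeq2 (lower). The members above 0 are of the Zscan4 and Usp17l families, with Tcstv3, Zfp352 and Tmem92, and near-identical copies of the families share reads, so that their levels are not independent. With the block 3 were higher and 2 lower. Pramel6 was at 9.001, 5.42 and 6.90 CPM and at 4.34, 1.55 and 1.77 CPM (log2 fold change -1.48, standard error 0.354, edgeR adjusted p = 0.0289, and 0.000408 with the block). Pramel7 had a log2 fold change of -1.42 (edgeR adjusted p = 0.0405, and 0.00700 with the block).

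Some genes of oxidative metabolism fell. Of 40 genes of the tricarboxylic acid cycle and of fatty acid oxidation, all tested, 3 fell and 0 rose (6 and 0 with the block or with DESeq2), 31 had a value under 0 and the median was -0.15. Slc25a4, the ADP/ATP carrier of the mitochondrial inner membrane, was at 224, 221 and 264 CPM in +E+N and at 110, 113 and 114 CPM in −E (log2 fold change -1.08, standard error 0.0838, edgeR adjusted p = 2.72e-05). Cpt1a, which commits fatty acids to import into mitochondria, was at 173, 144 and 154 CPM and at 86.8, 78.3 and 66.7 CPM (-1.03, standard error 0.193, edgeR adjusted p = 0.00837). Acaa2, the thiolase of the last step of fatty acid oxidation, was at 26.7, 28.9 and 30.1 CPM and at 17.1, 17.7 and 16.3 CPM (-0.75, standard error 0.0936, edgeR adjusted p = 0.000759). The states were far apart relative to their spread for Slc25a4 and Acaa2, whose calls held without any 1 library. Cpt1a did not pass the limits without any 1 library (edgeR adjusted p = 0.0165 to 0.0463), nor on log2(TPM + 1) values.

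Of 80 tested subunits of oxidative phosphorylation, 0 were called by edgeR and 1 by DESeq2 (lower), and 53 had a value under 0, with a median of -0.04. Over all genes tested, 1.55% were called by edgeR and 3.11% by DESeq2. With 80 genes, 0 calls by edgeR is near that share. Cox5a and Cyc1 had the lowest p values, at log2 fold changes of -0.43 and -0.29 (edgeR adjusted p = 0.00270 and 0.0127), and Cox5a went from between 254 and 264 CPM to between 181 and 210 CPM, a separation without overlap but under the fold limit. Of 80 tested mitochondrial ribosomal proteins and 13 mitochondrially encoded messenger RNAs, 0 were called by edgeR, with or without the block, or by DESeq2. The share over all genes with the block was 4.15%. The medians of the ribosomal proteins and of the mitochondrially encoded messenger RNAs were both 0.03. Of 23 tested genes of the mitochondrial and amino-acid stress response, 0 were called by edgeR or DESeq2 and 1 was lower with the block, Pck2 (log2 fold change -0.74, edgeR adjusted p = 0.0609, and 0.00106 with the block). Asns, the asparagine synthetase gene, was lower by less than the fold limit (log2 fold change -0.39, standard error 0.0663, edgeR adjusted p = 0.00442).

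Of 24 glycolysis genes, all tested, 2 fell and 0 rose, while the median was 0.20 and 17 had a value above 0. The 2 were Ldhb and the hexokinase gene Hk1, which was at 150, 139 and 133 CPM in +E+N and at 79.2, 90.5 and 67.2 CPM in −E (log2 fold change -0.83, standard error 0.102, edgeR adjusted p = 0.000693). With the block 4 members rose besides these 2 falls. One of them was Ldha, the other lactate dehydrogenase subunit gene, named after its value was seen, at 0.78 on the log2 scale (standard error 0.194, edgeR adjusted p = 0.0340, and past the limits with the block). The 2 subunit genes thus lay on opposite sides of 0. Of 21 cholesterol synthesis genes, Pmvk, phosphomevalonate kinase, fell, from between 49.9 and 58.4 CPM to between 33.1 and 37.9 CPM (-0.64, standard error 0.116, edgeR adjusted p = 0.00750), and it did not pass the limits without any 1 library (0.0137 to 0.0407).

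Some of the calls concerned abundant transcripts. With predicted genes left out, the 4 largest losses in mean TPM were those of Rnf7, a ubiquitin ligase subunit (313 in +E+N and 168 in −E), Ldhb, Slc25a4 (188 and 85.4) and Ucp2, an uncoupling protein gene of the mitochondrial carrier family (181 and 88.5). Rnf7 was at 256, 240 and 267 CPM and at 158, 125 and 128 CPM (log2 fold change -0.90, standard error 0.0838, edgeR adjusted p = 9.48e-05). The next gene tested on chromosome 9 is a predicted gene that also fell, by 3.65 on the log2 scale. Ucp2 was at 141, 176 and 173 CPM and at 77.6, 96.3 and 76.8 CPM (-0.97, standard error 0.148, edgeR adjusted p = 0.00276), a call lost without +E+N replicate 2 or 3 or −E replicate 1 or 3 (0.0128 to 0.0186). The 4 largest gains in TPM, again without predicted genes, were those of Mylpf, a myosin light chain gene (691 and 1239), Serpinh1, a collagen chaperone (77.7 and 125), Dnmt3l (16.4 and 47.6) and Gbx2 (36.2 and 55.1). Mylpf was at 192, 196 and 216 CPM and at 341, 282 and 323 CPM (0.65, standard error 0.118, edgeR adjusted p = 0.00748), but did not pass the limits without any 1 library (0.0104 to 0.0339). Serpinh1 rose by 0.74 on the log2 scale (edgeR adjusted p = 0.00482), a call lost without +E+N replicate 1 or 3 or −E replicate 2 or 3 (at most 0.0265).

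The remaining lists held 1 call by edgeR, where 1.55% of all genes tested were called. Of 20 cyclin, Cdk inhibitor and Myc family genes, Ccnd2 was the 1 called, with 2 higher with the block. Of 11 tested p53 targets, 32 imprinted genes and 20 genes of the epithelial-mesenchymal transition, 0 were called by edgeR, with respectively 1, 1 and 3 called by DESeq2. Phlda3, a p53 target, had a log2 fold change of 0.64 (edgeR adjusted p = 0.0432, and 0.00324 with the block). The imprinted RNA H19 had one of 1.32 (edgeR adjusted p = 0.0770). Krt8 and Cldn4, epithelial genes, had log2 fold changes of -1.41 and -0.75 (edgeR adjusted p = 0.0161 and 0.0215), and both were lower with the block (0.00127 and 0.00762).

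**Figure D4:**
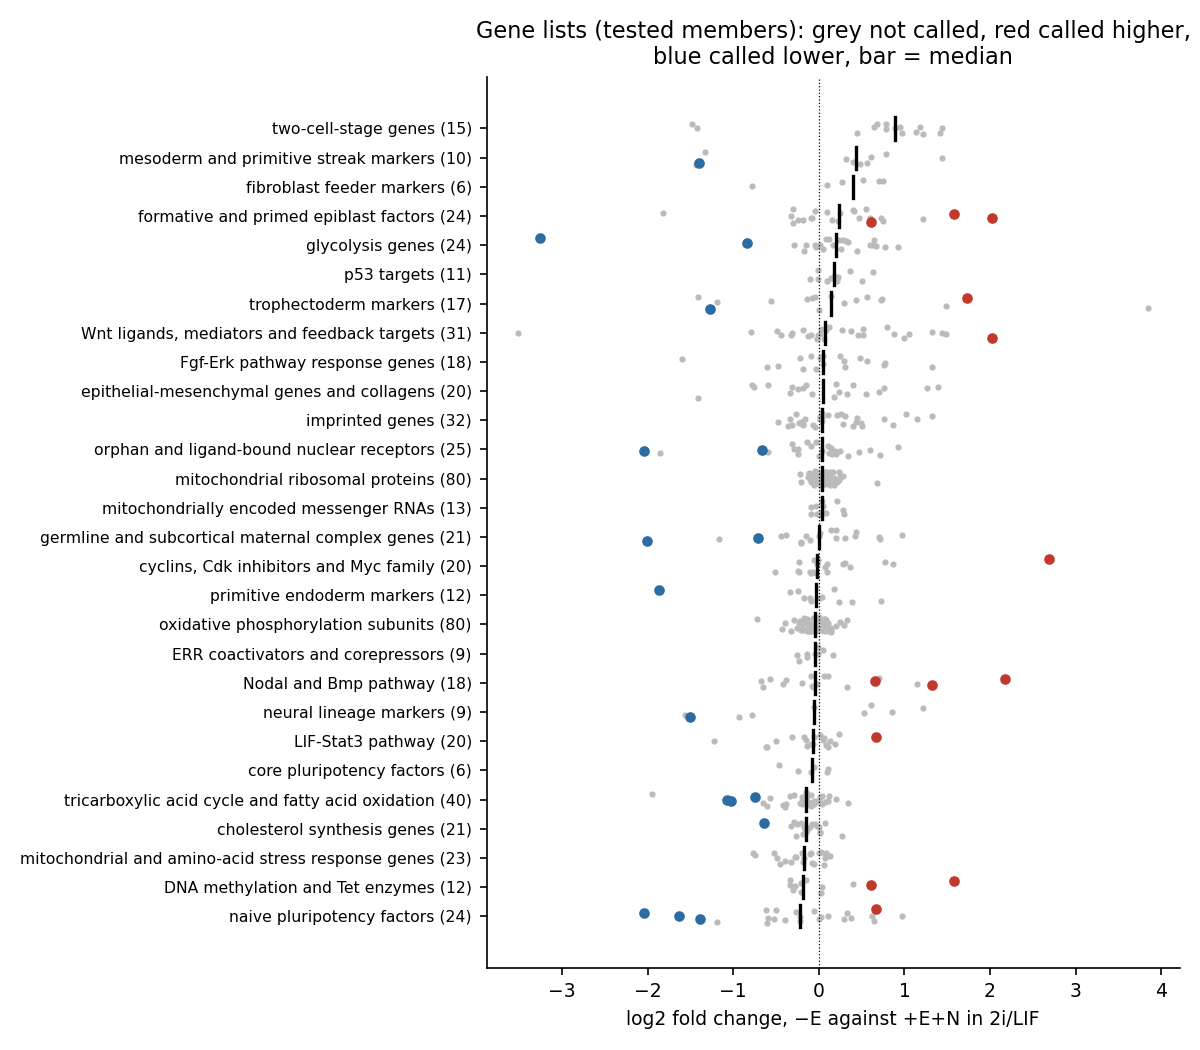
Log2 fold change in −E against +E+N in 2i/LIF (x axis) of the tested members of each gene list with at least 6 tested members, with the median as a bar. Called members (red higher, blue lower) make up between 0 and 16.7% of a list, against 1.55% of all genes tested. The medians run from -0.22 for naive pluripotency factors to 0.89 for genes of the 2-cell stage.

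The same Dox withdrawal was measured in 2 further pairs of states that share no library with these 6. In EKOiE NrKO cells in 2i/LIF, −E−N against −N, 6.76% of genes tested were called, 487 higher (3.39%) and 483 lower (3.36%). Of the 223 genes called with Nr5a2 present, 212 (95.1%) had the same sign there, against 66.8% of all genes tested, and 143 were called in the same direction, which is 58.7% of the higher and 66.2% of the lower genes. Read from the other side, these genes make up 7.60% of the rises and 21.9% of the falls without Nr5a2. In FCS/LIF, −E against +E+N, 5.76% of genes tested were called, 505 higher (3.23%) and 396 lower (2.53%). Of the 208 of the 223 genes tested there, 164 (78.8%) had the same sign, against 57.1% of all genes, and 71 were called in the same direction, which is 27.9% of the higher and 36.7% of the lower genes tested, and 3.37% of the rises and 13.6% of the falls of that medium. A total of 62 genes, 13 higher and 49 lower, were called the same way in all 3. Medium cannot be told apart from culture batch, nor can an effect of lacking Nr5a2 be told apart from other features of the NrKO cells.

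Esrrb itself differed more in the other pairs than the -0.46 seen here. Without Nr5a2 it was at a mean of 482 CPM in −N and 145 CPM in −E−N (log2 fold change -1.74, edgeR adjusted p = 3.14e-05). In FCS/LIF it was at 279 and 362 CPM in +E+N and at 75.3 and 66.1 CPM in −E (log2 fold change -2.18, edgeR adjusted p = 2.75e-05). The difference between media was -1.70 (edgeR adjusted p = 0.00108) and the interaction -1.28 (edgeR adjusted p = 0.0186, and 0.00244 with the block). The 3 pairs thus differ in the measured fall of the depleted gene's RNA, whose part in the differences below was not tested.

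For Ldhb the fall was present in each pair, at log2 fold changes of -2.17 without Nr5a2 and -2.66 in FCS/LIF. Its interaction was 1.09 (edgeR adjusted p = 0.0839, and 0.000930 with the block) and its difference between media 0.62 (edgeR adjusted p = 0.215, and 0.00833 with the block). Ly6a was likewise lower, by -4.18 and -3.14, and Epha4, by -1.87 and -2.11. Jam2 fell more in the other pairs, at -3.44 without Nr5a2 and -3.32 in FCS/LIF. The difference itself was past an adjusted p of 0.01 for both, at -1.81 for the interaction of the losses (edgeR adjusted p = 0.00328) and -1.67 for the media (edgeR adjusted p = 0.000368). Nr0b1 and Khdc3 reached -5.31 and -4.66 without Nr5a2, with interactions of -3.27 and -2.65 that were not past 0.01 (edgeR adjusted p = 0.0181 and 0.0492). With the block the interaction of Nr0b1 was past it (edgeR adjusted p = 0.000538) and that of Khdc3 was not (0.0222).

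Lefty1 and Lefty2 were called higher in neither other pair. Without Nr5a2, Lefty1 had a log2 fold change of -0.29 (edgeR adjusted p = 0.419) and Lefty2 fell, by 1.01 (edgeR adjusted p = 0.00425), and in FCS/LIF the values were 0.05 and -0.38 (edgeR adjusted p = 0.697 and 0.00853, the latter under the fold limit). The interaction was -2.46 for Lefty1 and -2.33 for Lefty2 (edgeR adjusted p = 0.00645 and 0.00388), and the difference between media -2.11 and -1.67 (0.00193 and 0.00265). The rise of the Nodal antagonists thus differed between −E in 2i/LIF and both other pairs. The reference states of those pairs already lay above −E in 2i/LIF. Lefty1 was at a mean of 5.62 CPM in +E+N and 25.4 CPM in −E in 2i/LIF, at 68.7 CPM in −N, and at 104 and 106 CPM in the +E+N libraries in FCS/LIF. Lefty2 was at a mean of 8.18 CPM in +E+N, 20.4 CPM in −E and 34.8 CPM in −N, and at 41.7 and 41.3 CPM in +E+N in FCS/LIF. Fabp3 had a log2 fold change of 0.28 without Nr5a2 (edgeR adjusted p = 0.333) and an interaction of 2.98 (edgeR adjusted p = 0.000627), and Padi2 one of 0.04 in FCS/LIF (edgeR adjusted p = 0.893) and a difference between media of 2.96 (edgeR adjusted p = 2.53e-05). In all, 44 of the 223 genes differed between media at an adjusted p under 0.01, against 1.06% of all genes in that fit, and 9 had an interaction, against 0.307%. With the block these counts were 87, against 4.51% of all genes, and 32, against 2.26%. Both shares are raised by the choice of the genes on their −E response, which enters each difference. Of the 223, 2 were called in the opposite direction without Nr5a2 (Lefty2 and the translation factor gene Eif4g3) and 3 in FCS/LIF (Ctsc, cathepsin C, with Gnal and Spats2l, named after their values were seen).

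**Figure D5:**
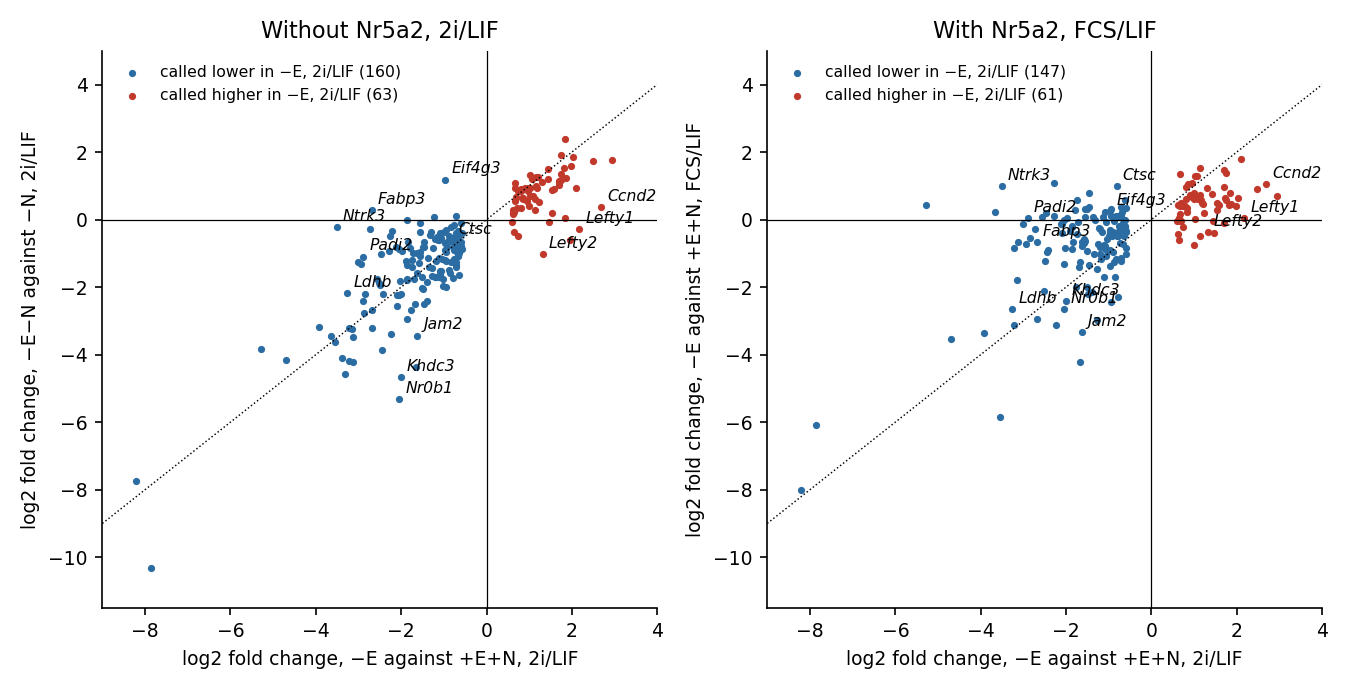
For genes called in −E against +E+N in 2i/LIF (x axis, log2 fold change), the log2 fold change of −E−N against −N in 2i/LIF (left) and of −E against +E+N in FCS/LIF (right), which share no library with the x axis, and a dotted line of equal change. Of the points, 212 of 223 on the left and 164 of 208 on the right have the sign of the x axis.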

How the data were processed

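RNA was sequenced as stranded paired-end libraries. The authors aligned the reads to mm10 with STAR, and the deposited estimated counts per gene, whole numbers in the file, were made with RSEM and not normalized between libraries (92 spike-in rows, with 0 counts here, were left out). The deposited TPM values were made by the authors with RSEM too and are scaled to transcript length and library. Reads that fit several copies of a gene are split among them by RSEM's estimate. Names and coordinates were taken from GENCODE vM21 by gene ID, with 14348 of the 14355 tested genes matched, and promoters from RefSeq by symbol.

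One edgeR fit (version 4.0.16, R version 4.3.3, TMM normalization, quasi-likelihood test, Benjamini-Hochberg adjustment) held the 12 libraries of the 4 states in 2i/LIF. A gene entered it when every replicate of some state reached 20 counts. Calls needed an adjusted p under 0.01 together with a fold change over 1.5. CPM values use TMM-scaled totals. The interaction is the −E−N to −N log2 fold change minus that of −E to +E+N, and the media difference is the −E response in FCS/LIF minus that in 2i/LIF, from 1 fit that held all 20 libraries. For both, the adjusted p had to be under 0.01 and the size was free. Standard errors are the log2 fold change over the root of its F. At depths between 26653035 and 32526534 counts, genes near 20 counts carry the most sampling error.

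Libraries with the same number deviated together (correlations of 0.483, 0.187 and 0.381 for +E+N with −E, and 0.421, 0.155 and 0.450 for −N with −E−N, over genes). For unlike numbers the correlations lay between -0.426 and 0.159 for +E+N with −E and between -0.408 and 0.0284 for −N with −E−N. The 0.159, of +E+N replicate 2 with −E replicate 3, is close to the 0.187 of number 2, whose pairing is less clear. The labels do not say what the number means. The main fit and the leave-outs held no term for it, and only the fits with the block treated it as pairing the libraries. A fit with the number as a block is given where it changes a call of −E against +E+N, and as counts and for some genes for the differences between pairs. The spread between replicates exceeded that of sampling (chi-square per degree of freedom of at least 5.68).

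The genes named were Esrrb and Nr5a2, the called genes, predicted genes left out, with the 12 largest log2 changes each way, given 100 counts or more on average and no overlap between states, for each list the called members (up to 6, or 2 of lowest p where fewer than 2 were called), the 4 largest gains and losses of TPM, and the 3 lowest p values for each difference. Predicted genes were counted and not named. One gene that this rule names is not reported here. The comparison, the gene lists and this rule were chosen with earlier results of these data known. The alternatives tried were the Wald test of DESeq2 1.42.0 with independent filtering off, DESeq2 size factors in edgeR, no filter on low counts, filterByExpr, the block, only the 6 libraries, all 20 libraries, limma 3.58.1 with TPM on a log2 scale (pseudocounts of 1 and of 0.1), other limits, and leaving out each library. Steps were tested on simulated data. ChIP-seq was not used here.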

Additional observations from a re-analysis of the deposited data

Results flagged for a closer look

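Among the genes named, 18 responses to −E differed between FCS/LIF and 2i/LIF and 8 differed between cells without and with Nr5a2 in 2i/LIF, each by a test of the difference itself at an adjusted p under 0.01. Values are log2 responses in the other pair minus those of −E against +E+N in 2i/LIF. Some of these genes were named for their response in 2i/LIF and some for the difference itself, and the 2i/LIF response enters each difference. In the blocked fit, which pairs libraries by replicate number, 34 of the 84 genes named differed between media and 22 with the lack of Nr5a2, these 18 and 8 among them.

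Higher in FCS/LIF than in 2i/LIF were the responses of Nova2 at 2.40 (standard error 0.432, edgeR adjusted p = 0.00527), Slit2 at 2.90 (standard error 0.479, edgeR adjusted p = 0.00305), Padi2 at 2.96 (standard error 0.252, edgeR adjusted p = 2.53e-05), Fabp3 at 2.04 (standard error 0.311, edgeR adjusted p = 0.00158), Lama1 at 1.67 (standard error 0.277, edgeR adjusted p = 0.00311), Sp8 at 2.21 (standard error 0.294, edgeR adjusted p = 0.000606), Slc25a4 at 1.02 (standard error 0.135, edgeR adjusted p = 0.000574), Ctsc at 1.82 (standard error 0.191, edgeR adjusted p = 6.95e-05) and Ntrk3 at 4.53 (standard error 0.533, edgeR adjusted p = 0.000252).

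Lower in FCS/LIF than in 2i/LIF were those of Esrrb at -1.70 (standard error 0.244, edgeR adjusted p = 0.00108), Lefty1 at -2.11 (standard error 0.33, edgeR adjusted p = 0.00193), Spn at -1.86 (standard error 0.311, edgeR adjusted p = 0.00329), Lefty2 at -1.67 (standard error 0.272, edgeR adjusted p = 0.00265), Jam2 at -1.67 (standard error 0.207, edgeR adjusted p = 0.000368), Tfcp2l1 at -1.58 (standard error 0.193, edgeR adjusted p = 0.000368), Dnmt3a at -1.01 (standard error 0.144, edgeR adjusted p = 0.00103), Asns at -0.75 (standard error 0.142, edgeR adjusted p = 0.00691) and Mylpf at -1.24 (standard error 0.194, edgeR adjusted p = 0.00193).

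Without Nr5a2 the response was higher for Padi2 at 1.80 (standard error 0.226, edgeR adjusted p = 0.00388), Fabp3 at 2.98 (standard error 0.286, edgeR adjusted p = 0.000627), Krt8 at 2.92 (standard error 0.377, edgeR adjusted p = 0.00435), Ntrk3 at 3.28 (standard error 0.502, edgeR adjusted p = 0.00913) and Eif4g3 at 2.15 (standard error 0.246, edgeR adjusted p = 0.00286). It was lower for Lefty1 at -2.46 (standard error 0.345, edgeR adjusted p = 0.00645), Lefty2 at -2.33 (standard error 0.29, edgeR adjusted p = 0.00388) and Jam2 at -1.81 (standard error 0.215, edgeR adjusted p = 0.00328). For Eif4g3 the sign turned, from -0.96 with Nr5a2 to 1.18 without it, both called, and for Ctsc it turned between media, from -0.82 in 2i/LIF to 0.98 in FCS/LIF, both called. Ntrk3, the receptor of neurotrophin 3, was at 3.81, 2.27 and 2.83 CPM in +E+N in 2i/LIF and at 0.320, 0.212 and 0.239 CPM in −E, and at under 1 CPM in each FCS/LIF library of these states, so that its difference rests on few counts. What sets these differences was not tested.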

How the results depend on the processing

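Every alternative kept more falls than rises among the genes called in −E. Against 223 calls (63 higher and 160 lower), DESeq2 gave 447 (158 and 289), no filter on low counts 401 (116 and 285), the replicate block 596 (242 and 354, 59.4% lower), all 20 libraries in 1 fit 351 (106 and 245), limma on log2(TPM + 1) 126 (24 and 102), on log2(TPM + 0.1) 105 (23 and 82) and over all genes above 0 66 (8 and 58), an adjusted p under 0.05 487 (187 and 300), and only the 6 libraries compared 156 (29 and 127, 81.4% lower against 71.7%). After the data were seen, the 6 libraries with the replicate block were added, with 591 (236 and 355), and all libraries numbered 1 left out, with 143 (38 and 105). Leaving out 1 library gave 87 to 159 calls, 18 to 49 higher and 69 to 110 lower. The cause of these shifts was not tested. The count for −E−N against −N, 970, was 1622 with the replicate block and 510 to 856 with 1 library left out. That for FCS/LIF, 901, was 1631 without a filter and 314 to 691. The 171 media differences were 532 with DESeq2, 706 without a filter, 728 with the block and 31 to 189 with 1 library left out, and the 44 interactions were 303, 212, 324 and 7 to 52. The same-sign share was 92.91 to 98.18% without Nr5a2 and 81.33 to 88.04% in FCS/LIF with 1 library left out. Of 49 named genes called, all kept their call with the block, DESeq2 and its size factors, 16 lost it with limma, 14 with only the 6 libraries, 15 without the libraries numbered 1 and 11 to 23 with 1 library left out. The block added 10 calls among the 35 others and changed no other call of −E against +E+N among them, while it added 16 differences between media and 14 interactions and lost 0. The one sign that turned was that of Tek, an endothelial marker, from 0.21 to -0.22 without −E replicate 1 (-0.22 to 0.40 over the libraries left out) and -0.18 without the libraries numbered 1. Genes near 20 counts are limited by depth.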

Other observations

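Of the 223 genes called, 11 pairs were next to each other on a chromosome among the genes tested, with untested genes possibly between them, and the genes below were named after their values were seen. On chromosome 4, Hspg2, the basement membrane proteoglycan perlecan, fell by 1.33 on the log2 scale together with the next gene tested, Usp48, a deubiquitinase (-0.60), and with Rap1gap, a GTPase activating protein tested next after Usp48 (-0.80). Also on chromosome 4, the adenylate kinase gene Ak4 (-1.68) and Dnajc6 (-1.76) both fell, as did Prkaa2, a catalytic subunit of AMP-activated kinase (-0.71), and Plpp3 (-1.001). Among rises, Armcx3 (1.31) and Armcx2 (1.15) formed such a pair on chromosome X. Pairs with opposite directions lay on chromosome 7. Lrrk1 was higher (1.15) and Aldh1a3, a retinaldehyde dehydrogenase, lower (-2.00). Klk8 was higher (1.22) and Klk1 lower (-4.71). All of these were at a mean under 100 counts. How many neighbouring pairs a list of this size would hold was not tested.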
